A study of Mus musculus with 5 samples.

Results

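The constitutive proteasome subunits were taken by name from the deposited table of read counts. They are the 36 protein-coding genes, of 41388 genes in all, whose symbol is Psma, Psmb, Psmc or Psmd followed only by a number, without Psmb8, Psmb9 and Psmb10, the subunits of the interferon-inducible immunoproteasome. Of these, 16 encode the core particle (Psma and Psmb genes) and 20 the regulatory particle or its assembly factors (Psmc and Psmd genes). The rule uses names and no measured value, and it was set with earlier results of these data known. After the filter on low counts 35 could be tested. The exception was Psmb11, which had 0 counts in all 5 libraries.

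RNA was sequenced in bulk from microglia, macrophages that reside in the brain, sorted from C57Bl/6 mice at 4 weeks of age. The A20 deletion group (3 libraries, genotype label eYFP-A20Dmg, condition A20-deletion) is described as fully deficient for A20, and its single alleles are not given in the labels. The control group (2 libraries, eYFP-A20fl/wt Cx3cr1-CreERT2/+) is described as partially deficient, so its microglia carry a deletable copy of A20 and the inducible Cre themselves. According to the labels every mouse received 2 mg tamoxifen on postnatal days 14 and 16, and cells were selected for the eYFP reporter after papain digestion. A Cre recombinase in the Cx3cr1 locus is active in microglia and also in other macrophages. The labels do not say whether each library came from its own animal, so p-values measure only the spread between these libraries. A20 is encoded by Tnfaip3 and edits ubiquitin chains on signalling proteins, which dampens NF-kB activation.

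The proteasome is the protease that degrades proteins tagged with ubiquitin chains. Its core particle is a barrel of stacked rings, in which the outer alpha rings control entry and the inner beta rings hold the proteolytic sites. Only the products of Psmb5, Psmb6 and Psmb7 are catalytic, with chymotrypsin-like, caspase-like and trypsin-like activity. The regulatory particle caps the barrel: its base, a ring of Psmc ATPases with scaffold and ubiquitin-binding subunits, unfolds the substrate, and its lid removes ubiquitin. Under interferon, cells make Psmb8, Psmb9 and Psmb10, which replace Psmb5, Psmb6 and Psmb7 in newly built core particles and alter the peptides available for MHC class I. Transcription of the constitutive subunits as a set is known to be driven by Nfe2l1, which binds antioxidant response elements in their promoters when proteasome activity is short.

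The promoters of 2 catalytic pairs are shown because the members of each pair differed in the results below: Psmb5 and Psmb6 did not pass the test, and their counterparts Psmb8 and Psmb9 did. Each line gives the 250 bases before the RefSeq start in GRCm38.p6, 5′ to 3′ on the gene's strand. Capitals mark matches to the antioxidant response element TGACNNNGC in Psmb5 and Psmb6 and to the gamma-activated site TTCNNNGAA in Psmb8.
Psmb5 (chr14:54617996-54618245, minus strand): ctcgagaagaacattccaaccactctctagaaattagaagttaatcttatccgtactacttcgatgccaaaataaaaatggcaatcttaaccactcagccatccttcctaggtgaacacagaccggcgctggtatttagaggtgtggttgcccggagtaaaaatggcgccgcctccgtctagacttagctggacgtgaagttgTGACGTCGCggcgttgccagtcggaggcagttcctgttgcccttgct
Psmb8 (chr17:34197945-34198194, plus strand): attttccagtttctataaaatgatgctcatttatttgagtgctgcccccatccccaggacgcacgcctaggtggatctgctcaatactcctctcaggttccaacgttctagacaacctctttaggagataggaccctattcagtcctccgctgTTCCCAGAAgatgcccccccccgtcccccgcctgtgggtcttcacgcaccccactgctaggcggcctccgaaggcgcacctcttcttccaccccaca
Psmb6 (chr11:70525107-70525356, plus strand): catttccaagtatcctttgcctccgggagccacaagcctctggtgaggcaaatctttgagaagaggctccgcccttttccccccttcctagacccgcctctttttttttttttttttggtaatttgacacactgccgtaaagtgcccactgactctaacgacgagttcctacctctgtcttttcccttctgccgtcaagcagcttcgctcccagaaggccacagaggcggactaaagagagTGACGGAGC
Psmb9 (chr17:34187331-34187580, minus strand): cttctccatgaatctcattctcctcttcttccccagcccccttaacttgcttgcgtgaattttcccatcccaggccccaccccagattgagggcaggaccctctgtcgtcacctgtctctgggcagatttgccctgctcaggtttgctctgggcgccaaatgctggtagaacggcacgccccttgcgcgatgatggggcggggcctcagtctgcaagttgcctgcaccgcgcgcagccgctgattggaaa
The element in Psmb5 began 47 bases before the start and that in Psmb6 9 bases before it. The match in Psmb8 began 97 bases before the start. The letters TTCNNNGAA read the same on both strands, so any match fits on both. Within this window Psmb9 held no match to these motifs. It held none to the interferon-stimulated response element core (GAAA and GAAA 2 bases apart). Nor did it hold the NF-kB letters (GGG and TTTCC 2 bases apart). In the gene annotation used here, Psmb8 starts at 34197721 and Psmb9, on the minus strand, at 34187764. Their windows thus lie inside the annotated genes and do not cover the bases before those starts. The windows of Psmb5 and Psmb6 do reach before the annotated starts, so positions within each pair are not alike.

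RefSeq promoters were found for 29 of the 36 members. Searched on both strands, 5 of them (17.2%) held the antioxidant response element, against 11.5% of all 27025 genes with a promoter: Psmb5, Psmb6, Psmc6, Psmd9 and Psmd12. The interferon-stimulated response element core was in 3 (10.3%, against 3.46% of all), namely Psmb3, Psmd4 and Psmd9. Neither the gamma-activated site (8.13% of all) nor the NF-kB letters (1.65% of all) matched in any of the 29. The ETS site CCGGAAG was in 9 members (31%, against 7.83%), the nuclear respiratory factor 1 site (GCGC and TGCGC 1 base apart) in 6 (20.7%, against 4.23%) and the CCAAT box in 12 (41.4%, against 37.5%). Matches of letters are a description and do not show that a factor binds.

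The A20 deletion libraries held 11902432, 12883827 and 9726334 counts and the control libraries 13946211 and 15275199. No 2 libraries agreed within sampling noise (chi-square per degree of freedom from 15.5 to 143.5). Tnfaip3 stood at 295, 277 and 348 CPM (counts scaled to the same library total) in A20 deletion replicates 1 to 3 and at 454 and 94.7 CPM in control replicates 1 and 2 (log2 fold change 0.16, SE 0.55, edgeR adjusted p = 0.881), and a sum over its exons cannot tell a deleted allele from an intact one. The A20 deletion libraries differed in structure: mitochondrially encoded genes took 0.847% of counts in replicate 1 and 4.63% and 3.56% in replicates 2 and 3, against 1.19% and 0.852% in the controls. Genes with transcripts longer than the median took 47.1%, 38.8% and 39.4% of the tested counts in A20 deletion replicates 1 to 3, against 50.4% and 48.9% in the controls. Replicate 1 of each group held Xist reads (616 in A20 deletion, 780 in control), and the other libraries held none. Microglial markers were abundant in every library, with sums over 10 markers of 38066 to 42792 CPM in A20 deletion and 53174 and 58593 CPM in control libraries, and the groups did not overlap in 9 of the 10, all lower in A20 deletion. Of these markers edgeR and limma-voom called 1, Fcrls, and DESeq2 called 5 (Cx3cr1, Fcrls, Gpr34, P2ry12 and Sall1), with 7 at an unadjusted p under 0.05 by each tool. The part of this difference in the proteasome values was not tested.

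In A20-deficient microglia the constitutive proteasome genes did not change detectably one by one. Of the 35 members, 0 rose and 0 fell at an adjusted p under 0.05 by edgeR, where 2.59% of all 12240 genes were called (2.08% higher, 0.507% lower). At an unadjusted p under 0.05 the count was also 0, against 21% of all genes, and the smallest unadjusted p was 0.0515, for Psmb1. DESeq2 and limma-voom also called 0 members at an adjusted p under 0.05 (7.95% and 1.72% of all genes) and 0 at an unadjusted p under 0.05 (13.6% and 20.2%). All core particle genes had a positive log2 fold change, with a median of 0.31 over 15 genes, while the regulatory particle genes were split, 11 positive and 9 negative, with a median of 0.07 over 20. Over all 12240 genes tested, 6555 had a positive log2 fold change and the median was 0.05. The particle medians differed by 0.24 on the log2 scale, 0.18 after removal of a trend on exon length and 0.00 after removal of one on transcript length.

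The 95% interval of the log2 fold change lay inside a 2-fold change in either direction for 34 of the 35, and inside a 1.5-fold change for 15, of which 2 were core and 13 regulatory. Psma8 was the exception to the first count. Half-widths of the intervals had a median of 0.40, against 0.60 over all genes tested. These intervals rest on the spread among 3 and 2 libraries and do not show that a gene stayed the same. In bulk RNA fewer cells of a type and less RNA per cell cannot be told apart.

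**Figure D1:**
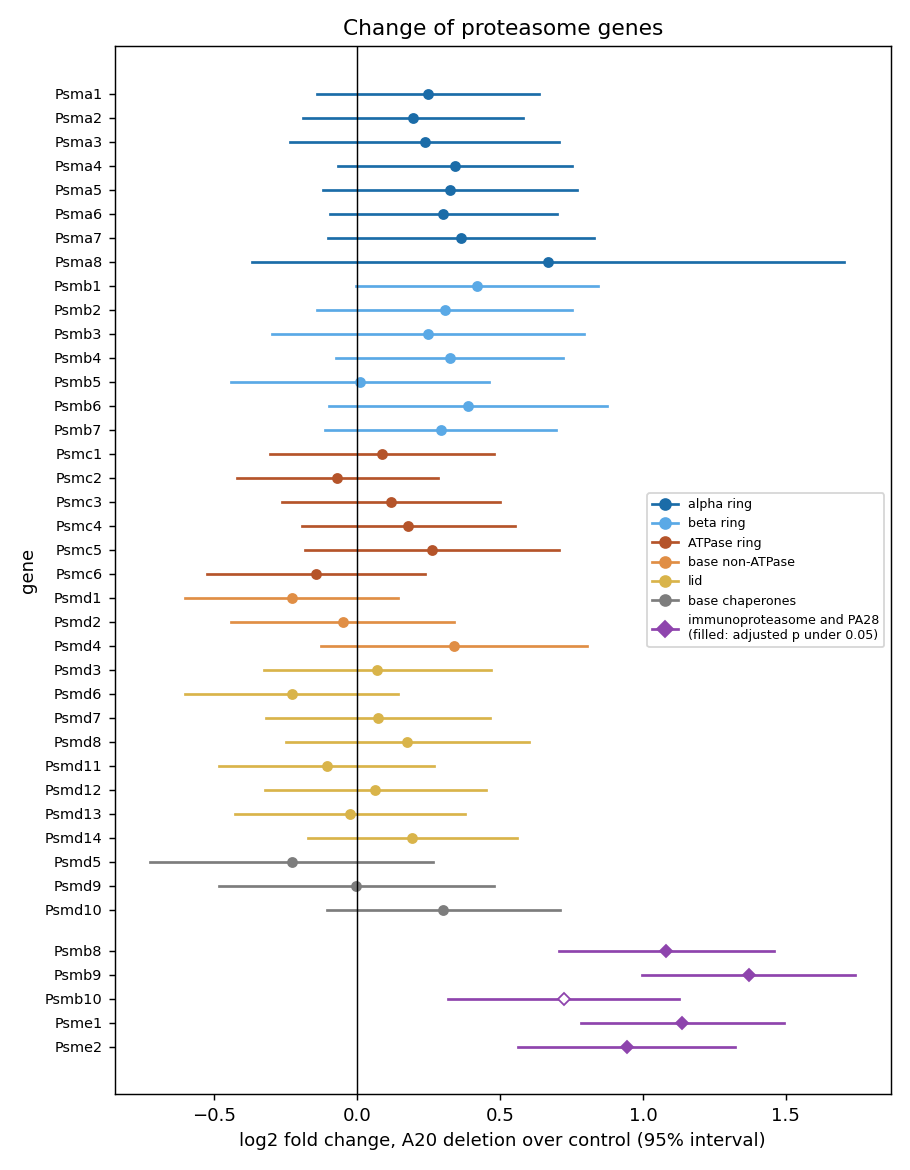
Log2 fold change of A20 deletion (3 libraries) over control (2 libraries) for the 35 tested members, coloured by subcomplex, and for 5 immunoproteasome and PA28 genes; bars are 95% intervals from edgeR. Every member's interval includes 0, the core particle genes lie at or to the right of 0, and 4 of the 5 immunoproteasome and PA28 genes passed the threshold.

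Levels per transcript length spread widely among the members. In RPKM (CPM per kilobase of the transcript with the longest coding sequence, mean over all 5 libraries), Psmb4 and Psmb6 stood highest at 109 and 106, followed by Psma6 at 87.5, Psma1 at 84.6 and Psma7 at 78.9. The regulatory particle was led by the ATPase gene Psmc3 at 72.2 and the lid gene Psmd8 at 65.0. At the low end came Psma5 at 12.1, Psmd9 at 8.45, Psmd5 at 7.499 and Psma3 at 6.83. Psma8, a testis-restricted alternative to Psma7, was at 1.75. Ranked by RPKM among the tested genes, the median member stood at percentile 87.0 and Psma8 at percentile 23.3. Low values of Psma3 and Psma5 are uncertain. Both have near-identical processed pseudogenes, and so had 8 members in all (at least 95% identity over at least 100 bases), among them Psma4, Psmb3, Psmc1, Psmd2 and Psmd11. Pseudogene rows held few counts themselves, at most 78 over all libraries. The treatment of reads mapping to several places is not given in the sources used here.

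**Figure D2:**
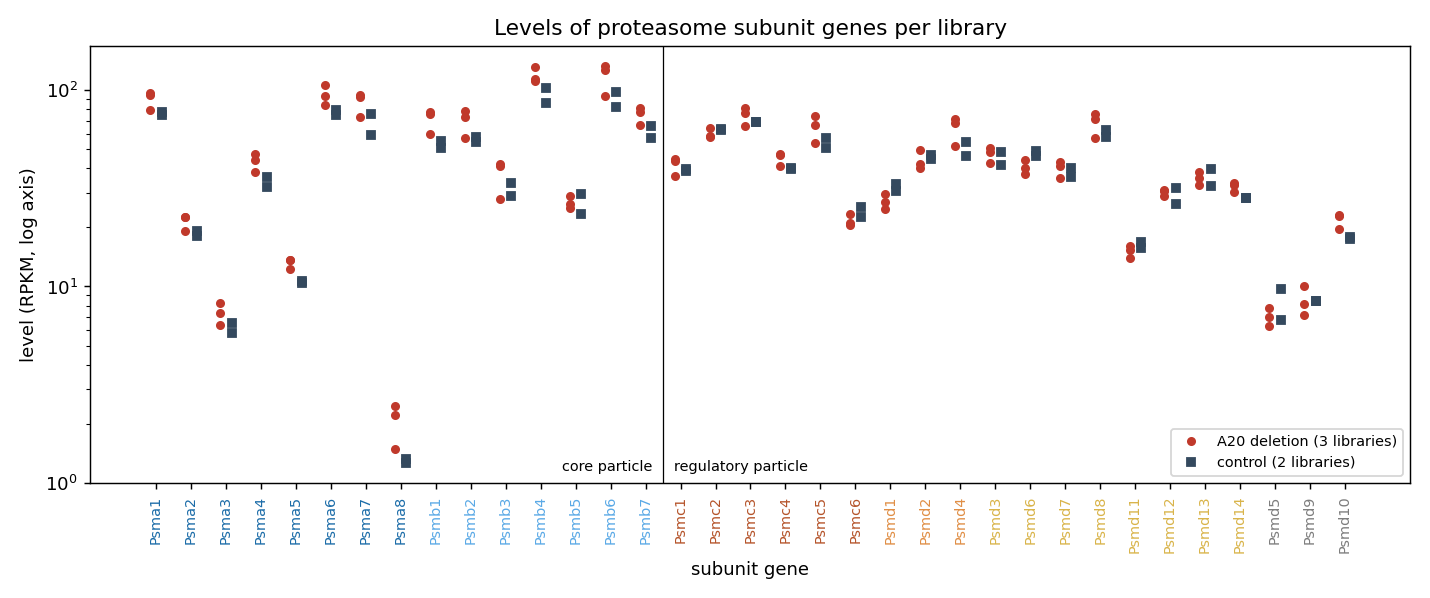
Level of each tested member in RPKM on a log axis, with 3 A20 deletion libraries (circles, left) and 2 control libraries (squares, right) per gene; label colours mark the subcomplex as in the plot of fold changes. Mean levels run from 1.75 RPKM for Psma8 to 106 for Psmb6 and 109 for Psmb4, and differ far more between genes than between groups.

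Of the 3 catalytic genes 0 passed. Psmb5 (ENSMUSG00000022193, GRCm38 chromosome 14, 54614119 to 54618022), which carries the chymotrypsin-like activity, had 23.6, 26.0 and 22.5 CPM in A20 deletion replicates 1 to 3 and 21.1 and 26.6 CPM in control replicates 1 and 2. All A20 deletion libraries fell between the controls, and the log2 fold change was 0.01 (SE 0.19, 95% interval -0.44 to 0.46, edgeR adjusted p = 0.981). Its sign turned under other scalings (-0.02 with DESeq2's size factors, -0.03 with library size alone). Psmb6 (ENSMUSG00000018286, chromosome 11, 70525367 to 70527858), the caspase-like subunit, had 74.6, 106 and 101 CPM in A20 deletion and 65.5 and 77.9 CPM in control libraries. A20 deletion replicate 1 fell between the controls, and replicates 2 and 3 stood above both (log2 fold change 0.39, SE 0.21, adjusted p = 0.318). Psmb7 (ENSMUSG00000026750, chromosome 2, 38588036 to 38644087), the trypsin-like subunit, had 77.2, 94.3 and 90.2 CPM against 66.4 and 76.1 CPM in control libraries. All A20 deletion libraries lay above both controls, replicate 1 by a small margin (log2 fold change 0.29, SE 0.17, adjusted p = 0.352).

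Among the other beta ring genes, which hold the ring together without a proteolytic site, Psmb1 (ENSMUSG00000014769, chromosome 17, 15475021 to 15499751) had the highest fold change. It stood at 104, 132 and 136 CPM in A20 deletion and 89.1 and 96.5 CPM in control libraries (log2 fold change 0.42, SE 0.18, edgeR adjusted p = 0.240). The groups did not overlap. Psmb4 (chromosome 3, 94884093 to 94886961), the most abundant beta gene per length, had 131, 135 and 154 CPM in A20 deletion libraries against 102 and 122 CPM in controls. Its groups did not overlap either, with a log2 fold change of 0.32 (SE 0.17, adjusted p = 0.310). Psmb2 averaged 59.5 ± 9.46 CPM in A20 deletion and 48.1 ± 1.85 CPM in control libraries, and Psmb3 averaged 28.4 ± 6.05 and 23.9 ± 2.501 CPM (SD, n = 3 and 2). In both, A20 deletion replicate 1 did not exceed the higher control.

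In the alpha ring, whose subunits form the gate of the barrel, the 8 log2 fold changes were all positive, from 0.19 to 0.67, with a median of 0.31, and 0 of 8 passed. Psma6 (ENSMUSG00000021024, chromosome 12, 55384222 to 55418454), the most abundant per length, had 87.7, 111 and 97.8 CPM in A20 deletion and 77.7 and 82.4 CPM in control libraries (log2 fold change 0.30, SE 0.17, edgeR adjusted p = 0.336). The A20 deletion libraries lay above both controls. Psma2, at the low end, had 55.9, 65.7 and 65.4 CPM against 52.9 and 56.1 CPM in controls (log2 fold change 0.19, SE 0.16), and A20 deletion replicate 1 fell between the controls. Psma8, at the high end, had 2.51, 4.17 and 3.77 CPM against 2.13 and 2.25 CPM (log2 fold change 0.67, SE 0.44, adjusted p = 0.401), where 3 counts correspond to 0.192 to 0.306 CPM.

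The other alpha genes lay between these. Psma1 averaged 108 ± 11.5 CPM in A20 deletion and 91.3 ± 2.87 CPM in control libraries, Psma4 averaged 50.3 ± 5.34 and 39.6 ± 3.31 CPM, and Psma5 averaged 16.3 ± 0.999 and 13.045 ± 0.240 CPM (SD, n = 3 and 2). In these 3 genes the groups did not overlap. Psma7 averaged 79.2 ± 10.99 CPM in A20 deletion and 61.5 ± 10.2 CPM in control libraries, and Psma3 averaged 20.7 ± 2.65 and 17.6 ± 1.43 CPM, with overlapping libraries.

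For the ATPases of the base, which unfold the substrate, log2 fold changes ran from -0.14 to 0.26 with a median of 0.10, 4 positive and 2 negative, and 0 of 6 passed. Psmc5 (ENSMUSG00000020708, chromosome 11, 106256154 to 106263120) had 70.8, 87.9 and 97.1 CPM in A20 deletion and 67.0 and 75.1 CPM in control libraries (log2 fold change 0.26, SE 0.19, edgeR adjusted p = 0.440). Psmc6 (ENSMUSG00000021832, chromosome 14, 45329788 to 45349705) had 45.9, 52.5 and 46.8 CPM against 50.4 and 56.6 CPM (log2 fold change -0.14, SE 0.16, adjusted p = 0.615). The groups overlapped in both genes. Psmc3, the most abundant ATPase gene per length, had 120, 139 and 147 CPM in A20 deletion libraries, and 125 and 125 CPM in controls, so that replicate 1 lay below both controls and replicates 2 and 3 above them. Psmc2 averaged 107 ± 5.99 CPM in A20 deletion and 113 ± 0.75 CPM in control libraries, Psmc1 averaged 66.2 ± 7.08 and 62.3 ± 1.03 CPM, and Psmc4 averaged 64.9 ± 5.07 and 57.3 ± 0.51 CPM (SD, n = 3 and 2). Only Psmc4, of the 6, had groups that did not overlap.

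The scaffold and receptor subunits of the base pointed in different directions. Psmd4 (ENSMUSG00000005625, chromosome 3, 95032694 to 95042614), a receptor for ubiquitin chains, had 66.1, 91.3 and 86.3 CPM in A20 deletion and 59.2 and 69.2 CPM in control libraries (log2 fold change 0.34, SE 0.20, edgeR adjusted p = 0.351). Replicate 1 fell between the controls. The scaffold genes Psmd1 and Psmd2, with transcripts of 3112 and 2961 bases, had log2 fold changes of -0.23 and -0.05. Psmd1 stood at 91.7, 84.0 and 77.5 CPM in A20 deletion libraries against 94.8 and 103 CPM in controls, without overlap. Psmd2 was highest of all libraries in A20 deletion replicate 1 (148 CPM) and lowest in replicates 2 and 3 (125 and 119 CPM), with 132 and 138 CPM in controls.

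Lid genes had log2 fold changes from -0.23 to 0.19 with a median of 0.07, 5 positive and 3 negative, and 0 of 8 passed. Psmd14 (chromosome 2, 61711694 to 61800376), the deubiquitinase of the lid, had 46.8, 50.9 and 51.8 CPM in A20 deletion and 43.7 and 43.5 CPM in control libraries, with no overlap (log2 fold change 0.19, SE 0.16, edgeR adjusted p = 0.484). Psmd6 (ENSMUSG00000021737, chromosome 14, 14112174 to 14120984) was the lowest of the Psmd genes, at 55.9, 61.0 and 52.2 CPM against 64.0 and 68.1 CPM in controls (log2 fold change -0.23, SE 0.16, adjusted p = 0.421). Its groups did not overlap. Psmd8, the most abundant per length, had 88.3, 110.0 and 117 CPM in A20 deletion libraries against 88.8 and 97.0 CPM in controls, so that replicate 1 lay below both controls. Psmd3, Psmd7, Psmd11, Psmd12 and Psmd13 had log2 fold changes between -0.11 and 0.07, and their groups overlapped.

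The 3 chaperones that help assemble the base differed in direction. Psmd10, known as gankyrin, averaged 31.2 ± 2.84 CPM in A20 deletion and 25.3 ± 0.37 CPM in control libraries, without overlap (log2 fold change 0.30, edgeR adjusted p = 0.343). Psmd9 averaged 21.9 ± 3.73 and 22.0 ± 0.03 CPM, and Psmd5 averaged 30.9 ± 3.40 and 36.1 ± 8.95 CPM (SD, n = 3 and 2), both with overlap. Exonic bases are shared with another gene in 9 members, and in Psmd9 a lincRNA on the other strand covers 25.5% of them. The catalytic gene Psmb5 shares 12.1% with the miRNA gene Mir686 on the same strand, and Psmb7 11.8% with Nek6 on the other strand. Without a stated strand setting the reads of genes on opposite strands cannot be told apart. On the same strand no such setting would separate them.

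Counted over the members, the groups did not overlap in 13 of 35 (40.2% of all genes), 11 with higher and 2 with lower A20 deletion libraries (21.8% and 18.5% of all genes). Of the 11, 8 were core genes. The 2 lower were Psmd1 and Psmd6.

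The A20 deletion libraries were not alike. Relative to the mean of both controls, the median core gene stood 0.12 higher on the log2 scale in A20 deletion replicate 1 and 0.41 and 0.40 higher in replicates 2 and 3. The median regulatory gene stood at -0.06 in replicate 1 and at 0.11 and 0.13 in replicates 2 and 3, against -0.05 and 0.05 in control replicates 1 and 2. Of 15 core genes, 14 exceeded both controls in replicate 2 and 14 in replicate 3, but 8 did so in replicate 1. Of the regulatory genes, 10 exceeded both controls in replicate 2, 11 in replicate 3 and 4 in replicate 1. In replicate 1, 9 regulatory genes lay below both controls. The matching shares of all genes were not computed, so these counts are a description only. Summed CPM of the core genes came to 869, 1065 and 1057 in A20 deletion replicates 1 to 3, against 761 and 846 in controls, and of the regulatory genes to 1349, 1488 and 1468 CPM against 1349.6 and 1442 CPM. The ratio of core to regulatory sum was 0.644, 0.715 and 0.720 in A20 deletion and 0.564 and 0.586 in control libraries. It was thus highest in the 2 libraries with the high mitochondrial and short-transcript shares. In replicate 1 it lay above both controls by less. Genes with transcripts longer than the median took 47.1% of tested counts there, against 50.4% and 48.9% in the controls. The part of this share in the ratio of that library was not tested. Comparing only replicates 1, which held Xist reads, the median core gene was 0.19 higher and the median regulatory gene 0.00 higher in A20 deletion. Between A20 deletion replicates 2 and 3 and control replicate 2, which lacked Xist reads, the medians were 0.32 and 0.09.

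**Figure D3:**
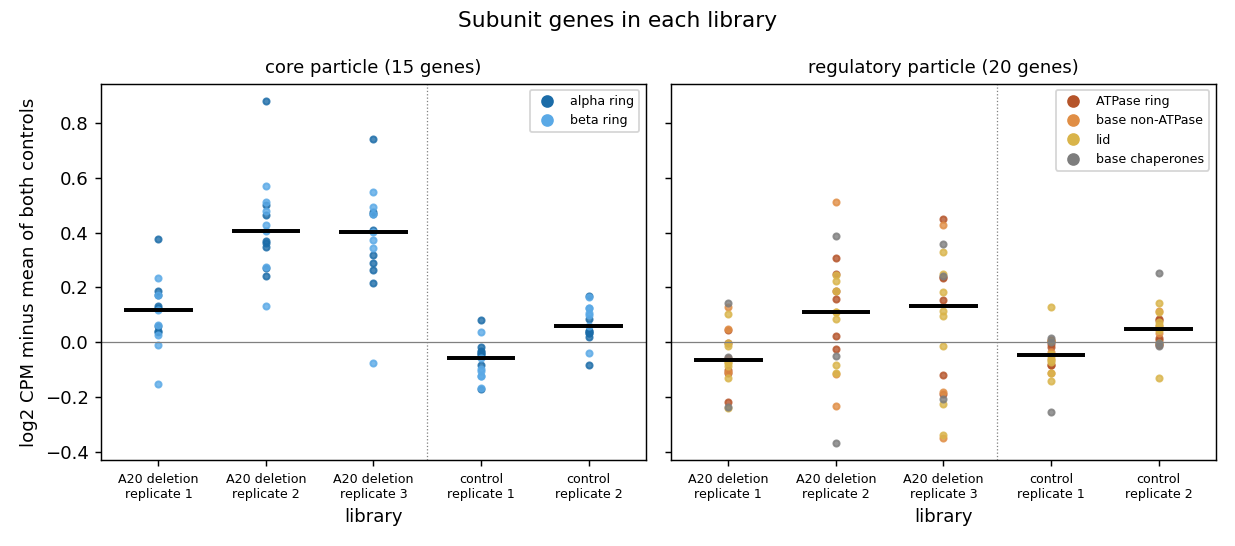
Log2 CPM of each tested member minus its mean over both controls, in 3 A20 deletion and 2 control libraries, for the core particle (left) and the regulatory particle (right); black bars are medians over genes. The core median sits at 0.12, 0.41 and 0.40 in A20 deletion replicates 1 to 3, and the regulatory median at -0.06, 0.11 and 0.13.

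With A20 deletion replicate 1 left out, 3 members passed: Psmb1 (log2 fold change 0.50, adjusted p = 0.0171), Psmb6 (0.50, adjusted p = 0.0263) and Psmd4 (0.44, adjusted p = 0.0410), all by edgeR. That fit called 32.4% of all genes (15.7% higher), and its groups coincide with the mitochondrial and short-transcript shares of replicates 2 and 3, from which it cannot be told apart. With replicates 2 and 3 both omitted 0 members passed, and the medians were 0.12 for core and -0.06 for regulatory genes. Its single A20 deletion library has no replicate, so its spread was taken from the controls, and 3.28% of all genes were called.

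Fold change fell with transcript length over the whole table. Among all tested genes the median log2 fold change was 0.69 for transcripts of up to 1000 bases, 0.33 between 1000 and 1500, 0.19 between 1500 and 2000, and -0.19 between 4000 and 6000 bases. Core transcripts had a median length of 1165 bases and regulatory transcripts 1802 bases. Across the 35 members, which share the same 5 libraries, log2 fold change and log2 length had a Pearson correlation of -0.58 and a Spearman correlation of -0.62. Within the 20 regulatory genes these were -0.72 and -0.70, and within the 15 core genes 0.09 and 0.02. The 5 members with transcripts of up to 1000 bases had a median of 0.31, below the 0.69 of all genes of that length, and the 11 members between 1000 and 1500 bases had a median of 0.30, against 0.33.

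After removal of each library's trend on transcript length, the medians were -0.08 for core and -0.09 for regulatory genes, and their difference was 0.00. With the trend on exon length, which counts the exons of all transcripts, they were 0.11 and -0.07, a difference of 0.18. With the exon trend removed 0 of 35 members passed (2.75% of all genes) and 3 had an unadjusted p under 0.05 (20.8% of all genes). With the transcript trend removed 0 passed (2.84%) and 2 had an unadjusted p under 0.05 (20.3%). The core median thus stayed above the regulatory one with the exon trend removed. With the transcript trend removed, a setting added after seeing the data, the 2 were level. The part of transcript length in the core median was not tested.

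**Figure D4:**
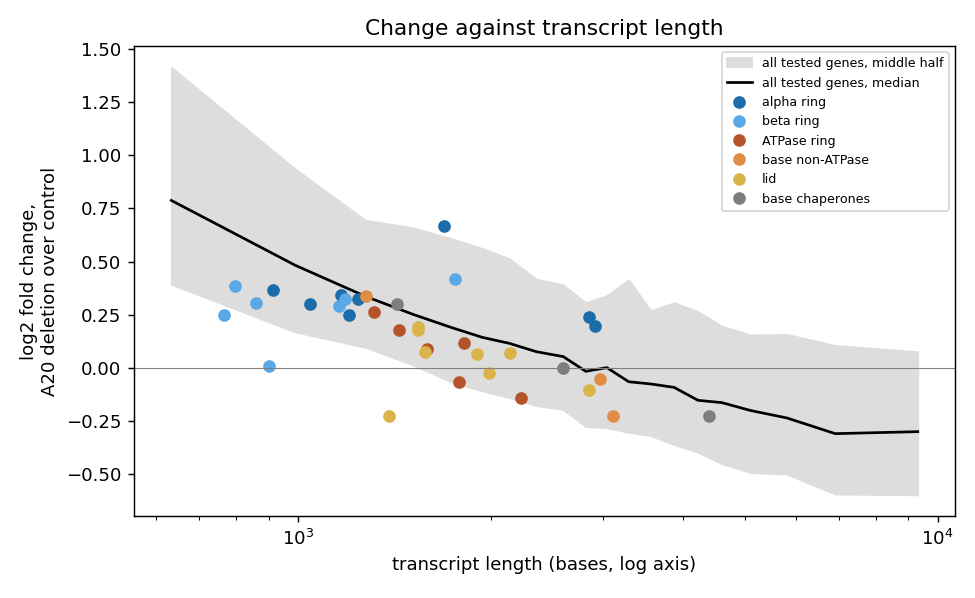
Log2 fold change of A20 deletion over control against transcript length (log axis) for the 35 members, coloured by subcomplex; the line and grey band are the median and interquartile range of all tested genes in 20 bins of length. Most members lie inside the band, and the shorter core genes sit where the line is higher.

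Among the immunoproteasome and PA28 genes, which stand outside the set, 4 of 5 rose. Psmb8 had 201, 216 and 237 CPM in A20 deletion and 104 and 102 CPM in control libraries (2.12-fold, log2 fold change 1.08, SE 0.16, edgeR adjusted p = 0.0215), and Psmb9 104, 103 and 96.9 CPM against 38.0 and 40.6 CPM (2.58-fold, log2 fold change 1.37, SE 0.16, adjusted p = 0.0102). Psmb10 had 131, 155 and 166 CPM against 90.1 and 92.1 CPM in controls, short of the threshold in edgeR (adjusted p = 0.0856) but past it in DESeq2. The activator subunits Psme1 and Psme2, which form the PA28 cap, rose 2.201-fold and 1.92-fold (adjusted p = 0.0153 and 0.0332). Leaving out either control leaves 1 control library without a replicate, so those fits cannot decide whether the 4 genes pass. Their log2 fold changes ran from 0.829 (Psme2) to 1.279 (Psmb9) without control replicate 1. Without control replicate 2 they ran from 0.965 (Psme2) to 1.367 (Psmb9). Without A20 deletion replicate 3 Psmb8, Psme1 and Psme2 did not pass (0.0899, 0.0698 and 0.135), nor did Psmb8 and Psme2 without A20 deletion replicate 2 (0.0670 and 0.104). Psme1 and Psme2 did not pass once the transcript length trend was removed (0.0679 and 0.193). Psme2 also did not pass with the exon length trend removed (0.113) or with A20 deletion replicates 2 and 3 both omitted (0.0672), and under the replicate block neither Psmb8 nor Psme2 did (0.0626 and 0.0755). In all, of 18 alternatives, Psmb9 passed in 16, Psme1 in 14, Psmb8 in 13 and Psme2 in 10. The 18 include the fits with 1 library in a group, where passing or not cannot be judged.

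The balance of each catalytic pair could be compared within a library. Reads of Psmb8 per read of Psmb5 numbered 8.52, 8.31 and 10.5 in A20 deletion and 4.90 and 3.84 in control libraries. Psmb9 over Psmb6 gave 1.40, 0.974 and 0.962 against 0.580 and 0.521, and Psmb10 over Psmb7 gave 1.69, 1.64 and 1.84 against 1.36 and 1.21. In all 3 pairs every A20 deletion library exceeded both controls, on average by 1.06, 0.99 and 0.43 on the log2 scale. An exact two-sided permutation test over the 5 libraries gave p = 0.2 for each of the 3 pairs (0.2 after Benjamini-Hochberg adjustment). In the form used, this test could give no smaller p with 3 libraries against 2. The limit thus came from the form of the test together with the number of libraries. It could not decide whether the ratios differed between the groups. These ratios are of reads, not of molecules, because the transcripts differ in length.

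**Figure D5:**
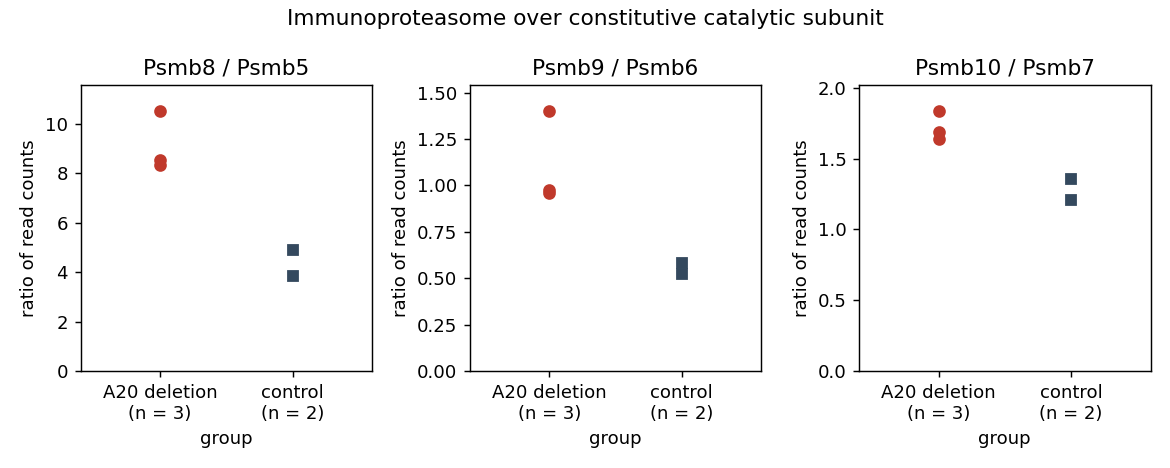
Reads of each immunoproteasome catalytic subunit per read of its constitutive counterpart, in 3 A20 deletion libraries (circles) and 2 control libraries (squares); axes start at 0. Every A20 deletion library lies above both controls, with ratios of 8.31 to 10.5 against 3.84 and 4.90 for Psmb8 over Psmb5.

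In the other pathway lists edgeR called 0 genes in either direction. All 5 core assembly chaperones had positive fold changes (median 0.42), as had 6555 of all 12240 genes tested. Their transcripts had a median length of 1044 bases, and all tested genes between 1000 and 1500 bases had a median of 0.33. The part of length in these values was not tested. For Psmg4, with a transcript of 555 bases, the log2 fold change ran from 0.27 to 1.27 over the main fit and 18 alternatives. Psmg4 stood at 13.8, 16.4 and 20.9 CPM in A20 deletion and 6.97 and 8.15 CPM in control libraries (log2 fold change 1.17, SE 0.25, edgeR adjusted p = 0.0700), and it passed in DESeq2 (adjusted p = 0.0107), as did Pomp, while limma-voom called 0 of the 5 (2 at an unadjusted p under 0.05 by each tool). Among 6 further regulatory particle genes the smallest p was that of Sem1, the smallest lid subunit, at 57.1, 75.3 and 77.7 CPM against 45.2 and 45.5 CPM (adjusted p = 0.149), the 1 gene of the 6 with an unadjusted p under 0.05. Of 3 other activators and inhibitors Psme4, an ATP-independent activator with a long transcript, stood at 55.1, 35.6 and 36.4 CPM against 68.9 and 56.7 CPM (adjusted p = 0.232). All A20 deletion libraries lay below both controls, replicate 1 by a small margin. DESeq2 and limma-voom called 0 in both lists.

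Among 7 transcription factors of proteasome genes and their processing enzymes edgeR called 0 (1 at an unadjusted p under 0.05). Nfe2l1 stood at 165, 133 and 159 CPM in A20 deletion and 178 and 140 CPM in control libraries, with overlapping groups (log2 fold change -0.07). The small Maf gene Maff had 10.9, 13.5 and 15.99 CPM against 5.90 and 1.48 CPM (adjusted p = 0.133 by edgeR, 0.0167 by DESeq2). Of 11 ubiquitin shuttle and segregase genes, which bring substrates to the proteasome, 9 had negative fold changes (median -0.24). Over all 12240 genes tested 5685 were negative. The 11 had a median transcript length of 3344 bases, and all tested genes between 3000 and 4000 bases had a median of -0.06. The part of length in these values was not tested. Of the 11, 0 passed in edgeR, DESeq2 or limma-voom (2, 4 and 3 at an unadjusted p under 0.05). Nploc4, a cofactor of the segregase Vcp, had the smallest p, with 80.3, 62.4 and 63.1 CPM in A20 deletion and 95.5 and 100.5 CPM in control libraries (adjusted p = 0.179). Of 4 ubiquitin genes 0 passed by any of these tools, also unadjusted, and Rps27a, a fusion of ubiquitin with a ribosomal protein, had the smallest p at 3.64 to 5.40 CPM against 2.70 and 2.31 CPM (edgeR adjusted p = 0.261). Rps27a has near-identical copies, so its counts are uncertain.

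Markers of other cells moved with the groups in part. Monocyte markers summed to 56.1 to 84.5 CPM in A20 deletion and 25.9 and 32.5 CPM in control libraries (1 of 7 tested called higher, Plac8). Those of T and NK cells summed to 6.82 to 9.53 CPM against 2.92 and 6.74 CPM (0 of 3 tested called, 3 at an unadjusted p under 0.05). Within that list Klrd1, a receptor of NK cells, ran the other way, at 1.04, 2.04 and 0.611 CPM in A20 deletion and 2.28 and 5.45 CPM in control libraries. The T cell genes Cd3e, Cd3d, Cd3g, Trac and Cd8b1 had 1 to 9 counts in each A20 deletion library and 0 in both controls. All were under the filter on low counts. Other genes of the list under the filter were less even across A20 deletion replicates 1 to 3. Cd8a had 7, 0 and 0 counts and Trbc2 had 4, 2 and 0, with 0 in both controls. Cd247 had 2, 0 and 0 against 0 and 1, Ncr1 0, 1 and 0 against 0 and 0. Nkg7 had 10, 8 and 2 counts against 1 and 0. Markers of proliferating cells summed to 17.1 to 30.5 CPM against 8.15 and 11.03 CPM (0 of 5 tested called, 2 at an unadjusted p under 0.05). Astrocyte markers summed to 143 to 214 CPM against 107 and 146 CPM (1 of 5 tested called higher, Aldh1l1) and oligodendrocyte markers to 252 to 340 CPM against 190 and 213 CPM (0 of 4 tested called, 3 at an unadjusted p under 0.05). For border macrophages (69.8 to 85.4 CPM against 52.2 and 113 CPM), neutrophils, B cells and neurons edgeR called 0 markers (1 at an unadjusted p under 0.05, among the neurons). Of 5 endothelial markers edgeR called 0, but 5 had an unadjusted p under 0.05 and groups that did not overlap, 4 of them higher in A20 deletion. Cldn5 stood at 19.8, 2.67 and 7.44 CPM in A20 deletion and 0.142 and 1.92 CPM in control libraries, while Pecam1 stood at 26.3, 35.2 and 28.0 CPM against 50.6 and 53.1 CPM. The markers called by DESeq2 included Cd4, Fn1, Plac8, Aldh1l1, Gfap, Pecam1, Birc5 and Cdk1. The part of these cells in the proteasome values was not tested.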

How the data were processed

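The deposited values are read counts per Ensembl gene in 1 table, not normalized, for 3 A20 deletion and 2 control libraries. The submitters' processing notes name STAR 2.4.0j, featureCounts, DESeq2 1.22.1 and GRCm38; annotation release, strand setting and how multi-mapping reads were handled are not recorded there. Symbols, coordinates and lengths came from GENCODE M21 (40340 of 41388 genes matched; the other 1048 stayed in the tests), promoters from RefSeq (GRCm38.p6).

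Genes were kept by filterByExpr (minimum count 10, total 15; 12240 kept), scaled by TMM and tested with edgeR 4.0.16 in R 4.3.3 (glmQLFit, glmQLFTest, two-sided, no covariate, Benjamini-Hochberg over all genes, threshold 0.05). CPM use the scaled library total; ± is the SD between libraries. SE is the log2 fold change divided by the square root of F, with 95% intervals from it, both approximate. Log2 CPM used a prior count of 2. Intervals cover the spread among these libraries.

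Members and lists were chosen with earlier results of these data known. Values per library are given, by rule, for the highest and lowest fold change and the most abundant member of each gene family, the 3 catalytic genes, every called gene or the smallest p of each other pathway list, and Tnfaip3; Psmd1, Psmd2, Psmd14, Psmb10 and Nfe2l1 were added after their values were seen. On simulated counts with known fold changes the same steps were tested first. DESeq2 1.42.0, limma-voom (limma 3.58.1), other scalings and filters, a replicate block, terms for mitochondrial share and sex, an exon length trend, and omitted libraries were alternatives; a transcript length trend (lowess, span 0.3) was added after seeing the data. A few single genes of the marker and pathway lists are not reported here.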

Additional observations from a re-analysis of the deposited data

How the results depend on the processing

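Under 17 of 18 alternatives 0 members passed in either direction; the count of members higher ranged from 0 to 3 when each library was left out. When each library was left out, the core median ranged from 0.215 to 0.354 and the regulatory median from -0.043 to 0.095. With A20 deletion replicates 2 and 3 both omitted the core median, the regulatory median and their difference were 0.12, -0.064 and 0.19, with the mitochondrial share as covariate 0.14, -0.041 and 0.18, with the exon length trend removed 0.11, -0.070 and 0.18, and with the transcript length trend removed (chosen after seeing the data) -0.083, -0.085 and 0.0022. The cause was not tested. The median of all genes, 0.05 in the main analysis, was 0.0095 with library size alone and 0.11 with upper quartile scaling.

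Of 448 values of named genes under alternatives 389 kept their sign and side of the threshold, 19 lost and 13 gained a call, and 27 turned sign, 12 of these in Psmb5 and none in a called gene. Psmb5 was at -0.019 with DESeq2's size factors, -0.028 with library size alone, -0.029 with no filter and with the mitochondrial covariate, -0.035 in DESeq2, -0.0089 with replicates 2 and 3 both omitted, -0.010 with sex as a term, -0.61 and -0.47 with the exon and transcript trends removed, and from -0.19 to 0.13 when each library was left out. With replicates 2 and 3 omitted Psmc3 and Psmd8 were at -0.048 and -0.064, and with the mitochondrial covariate at -0.020 and -0.018. With the exon trend removed Psma6, Psmc5 and Psmc3 were at -0.19, -0.18 and -0.065. With the transcript trend removed Psma6, Psmb4, Psmc5, Psmc3, Psmd8, Psmb6 and Psmb7 were at -0.13, -0.03, -0.060, -0.061, -0.074, -0.19 and -0.083. Tnfaip3 ranged from -0.62 to 1.65 when each library was left out.

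The replicate block gave 0 members called, with medians of 0.26 and 0.03; Psmb8 and Psme2 lost their calls under it (adjusted p = 0.0626 and 0.0755). Numbers in the titles are shared by 2 pairs of libraries only, whose deviations from the group means correlated at 0.26 and 0.17, and each pair also shares the presence or absence of Xist reads. With 2 pairs and no shared animal or batch in the labels, the numbers were not taken as pairing. Without control replicate 2 edgeR called 0 of 13003 genes, where 1323 had an unadjusted p under 0.05. As to depth, 34 members had at least 12.9 CPM in every library.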
